A study of Mus musculus with 6 samples.

Results

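The importin alpha family and importin beta were followed in RET cells, a mouse melanoma cell line of strain C57BL\6, in 3 cultures with a control short hairpin RNA that targets no transcript (control shRNA) and in 3 with a hairpin against Angpt2, the gene of the secreted vessel factor angiopoietin-2 (Angpt2 shRNA-1). All 6 cultures were seeded at equal cell number and grown for 24 h, and 100 ng of total RNA from each was hybridised to its own Affymetrix Mouse Gene 2.0 ST array. One cell line and a single hairpin were used, so effects of Angpt2 loss and other effects of this hairpin cannot be told apart. The members are Kpna1, Kpna2, Kpna3, Kpna4, Kpna6 and Kpnb1, 6 of 22180 named genes, and all 6 had values on every array. Where several array rows named a gene, and that gene alone, the brightest row on average stood for it. The family was selected on earlier results of these same arrays, in which the group mean of Kpna2 stood out. Its differences between the groups and their intervals are therefore descriptions, and no test result is drawn for the members.

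Proteins with a classical nuclear localisation signal enter the nucleus bound to an importin alpha, the adaptor that recognises the signal, and importin beta, the receptor that carries the complex through the nuclear pore. Inside the nucleus the GTPase Ran, loaded with GTP, releases the cargo, and the exportin Cse1l returns importin alpha to the cytoplasm. Kpna3 and Kpna4 are close relatives, as are Kpna1 and Kpna6, while Kpna2 is the only member here of its branch. Kpna2 is abundant in proliferating cells, and its transcript is known to rise towards mitosis.

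The arrays carried the markers of the labelled cell type. The 8 melanocyte markers had mean intensities from 1605 to 9390 (linear scale, deposited values), whereas the 18 measured markers of endothelial cells, leukocytes, fibroblasts and keratinocytes had means from 51.6 to 147, against array medians of 74.6 to 76.3. The mean of 147 was that of Cd68, a lysosomal protein of macrophages. The targeted transcript, Angpt2, read 195, 372 and 326 in control cultures 1, 2 and 3 and 100.2, 122 and 122 with the Angpt2 hairpin, with no overlap between the groups. Its difference did not pass the limma test over all genes (log2 -1.33, SE 0.21, adjusted p = 1.00; 0.046 with the replicate number as a block). Log2 values of arrays of one group correlated at 0.978 to 0.990. Cultures were measured whole, so fewer cells with a transcript and less transcript per cell cannot be told apart. Intensities of different genes come from different probes, so levels of the importin genes were not ranked against each other, and the marker levels above serve only to set signal beside the array medians.

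Promoter sequences were taken from RefSeq (build GRCm38.p6) and are shown because Kpna2 varied between cultures and its import partner Kpnb1 did so much less. Entries matched for 3 of the 6 members, Kpna2, Kpnb1 and Kpna4, and not for Kpna1, Kpna3 and Kpna6. Each runs 5′ to 3′ from 250 bases before to 50 after the annotated start, on the gene's own strand, which is the minus strand for all 3. The windows are chr11:106999476-106999775 for Kpna2, chr11:97187843-97188142 for Kpnb1 and chr3:69127043-69127342 for Kpna4. Capitals mark CCAAT, the core of the NF-Y site, and TTTGAA, the core of the cell cycle genes homology region found in many mitotic genes, each on either strand, where they read ATTGG and TTCAAA.
Kpna2: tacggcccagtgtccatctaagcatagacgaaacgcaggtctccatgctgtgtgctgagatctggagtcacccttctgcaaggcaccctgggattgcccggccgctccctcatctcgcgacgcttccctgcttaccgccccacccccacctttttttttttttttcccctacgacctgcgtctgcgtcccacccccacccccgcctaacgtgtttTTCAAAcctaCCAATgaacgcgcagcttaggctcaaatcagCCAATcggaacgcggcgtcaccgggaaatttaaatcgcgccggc
Kpnb1: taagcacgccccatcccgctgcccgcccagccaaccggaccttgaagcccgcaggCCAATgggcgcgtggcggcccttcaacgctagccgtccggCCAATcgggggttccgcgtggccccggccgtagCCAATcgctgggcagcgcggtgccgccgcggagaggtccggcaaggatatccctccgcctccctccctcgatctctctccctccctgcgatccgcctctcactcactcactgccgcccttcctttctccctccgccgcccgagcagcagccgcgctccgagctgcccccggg
Kpna4: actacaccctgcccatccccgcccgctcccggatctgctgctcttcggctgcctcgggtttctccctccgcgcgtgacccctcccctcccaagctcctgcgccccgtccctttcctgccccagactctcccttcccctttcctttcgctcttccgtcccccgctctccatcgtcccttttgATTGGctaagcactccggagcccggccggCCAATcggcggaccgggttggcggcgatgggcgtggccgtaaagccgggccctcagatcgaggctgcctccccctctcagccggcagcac

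Kpna2 held 2 CCAAT words, beginning 25 bases before the start and at base 7 after it, and 1 TTTGAA word on the opposite strand beginning 35 bases before the start. Kpnb1 held 3 CCAAT words, beginning 195, 155 and 122 bases before the start. Kpna4 held 2, beginning 69 and 40 bases before the start, the former on the opposite strand. TTTGAA was found in neither Kpnb1 nor Kpna4 within these windows. No marked word overlapped another. Of 32851 promoter windows of this length, 37.4% held CCAAT, 11.7% held at least 2 such words and 3.37% at least 3, while 17.9% held TTTGAA and 6.95% held both. Other words searched on either strand were CCGCCC, the core of a GC box, found 1 time in Kpna2, 3 times in Kpnb1 and 1 time in Kpna4 (35.7% of all windows), and TATAAA, found in none of the 3 (13.6%). GC content was 57.7% in the Kpna2 window, 72.0% in that of Kpnb1 and 68.7% in that of Kpna4, against a median of 52.7% over all windows. These matches describe letters and do not show binding, and any link between them and the variation of Kpna2 was not tested.

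Kpna2 was the one member that varied widely (gene ID 16647, transcript cluster 17271033). It read 638, 501 and 1475 in the control cultures, in the order of replicate numbers 1, 2 and 3 used throughout. With the Angpt2 hairpin it read 1684, 1720 and 1407. Control replicates 1 and 2 were low and the other 4 arrays were high, and control replicate 3 lay inside the range of the Angpt2 shRNA-1 cultures, so the groups overlapped. The 3 control cultures spanned 2.94-fold, the 3 Angpt2 shRNA-1 cultures 1.22-fold.

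On the log2 scale Kpna2 was 9.60 ± 0.82 in controls and 10.64 ± 0.16 in Angpt2 shRNA-1 cultures (SD, n = 3 arrays each). The log2 difference was 1.04 (SE 0.33, 95% interval 0.30 to 1.78), or 2.05-fold higher in geometric means. It depended on which control array was included. Without control replicate 3 the log2 difference was 1.50 (SE 0.14), and without control replicate 2 it was 0.72 (SE 0.30). Within replicate numbers 1 and 2 Kpna2 was 2.64-fold and 3.43-fold higher with the Angpt2 hairpin, and within number 3 the log2 difference was -0.07.

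The gap in Kpna2 set control replicates 1 and 2 apart from control replicate 3 and from all 3 Angpt2 shRNA-1 arrays. It thus ran within the control group as well as between 2 of the controls and the other group. The brighter of control replicates 1 and 2 was 2.21-fold below the dimmest of the other 4 arrays, and those 4 arrays lay within 1.22-fold of each other. This gap was looked for after the values were seen. Among 22180 genes, 1468 (6.62%) had control replicates 1 and 2 as their 2 lowest arrays, and of these 1 gene, Kpna2, had a gap of at least 2-fold between them and the rest. These 2 low arrays also make up the group difference for which Kpna2 was chosen, so this count is read no further. The spread of Kpna2 over the 6 arrays, a log2 SD of 0.77, was larger than that of 99.9% of genes. Kpna2 was chosen for its group difference, which is part of this SD, so the rank is read no further. Among controls alone its SD was larger than that of 99.8% of genes, and among Angpt2 shRNA-1 cultures larger than that of 80.1%. The rank among controls rests on the same 2 low arrays as the group difference and is likewise read no further. RefSeq lists a pseudogene, Kpna2-ps, on chromosome 17, and whether the probes behind the Kpna2 value also read it was not tested. The array annotation gave Kpna2 a single row, so no other row could be set beside it.

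**Figure D1:**
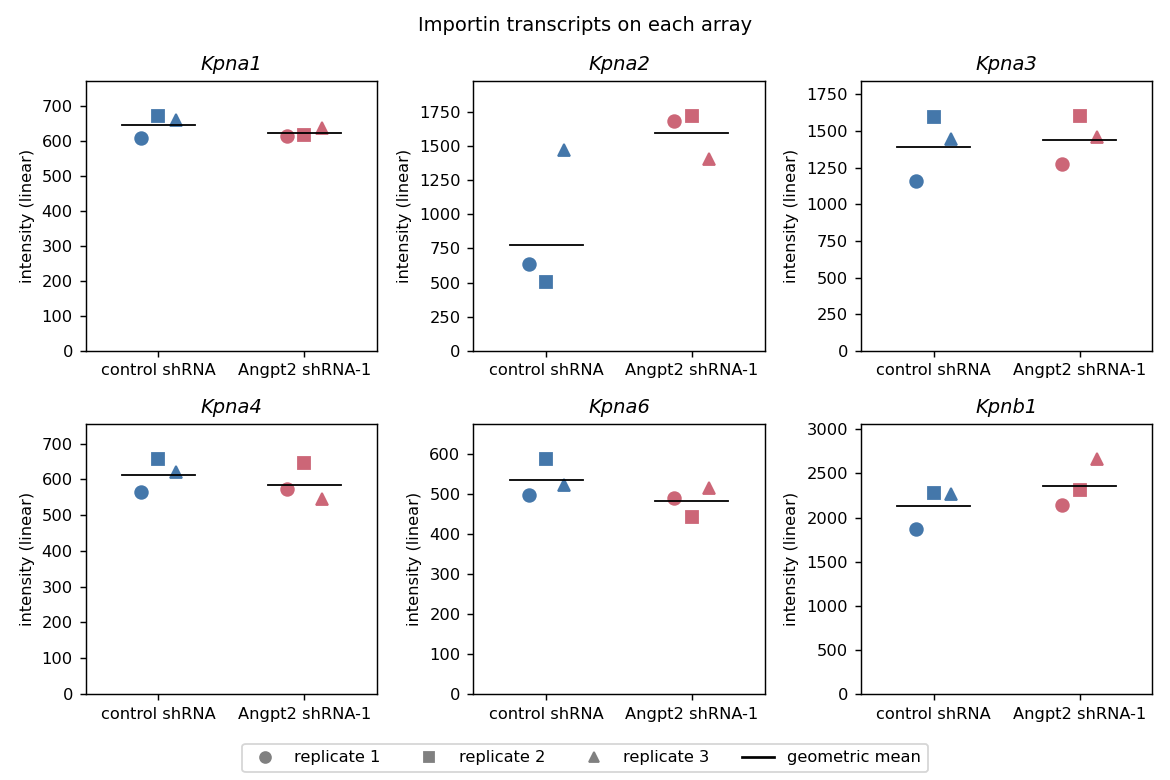
Intensity (linear scale, from 0) of the 6 importin genes on each array, with control shRNA in blue, Angpt2 shRNA-1 in red, marker shape giving the replicate number and the line the geometric mean of 3 arrays. Kpna2 sits at 638 and 501 on control replicates 1 and 2 and between 1407 and 1720 on the other 4 arrays, whereas each of the other 5 genes spans at most 1.42-fold over all arrays.

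Kpnb1, the importin beta that receives every importin alpha with its cargo, varied less than Kpna2 across the cultures (gene ID 16211, transcript cluster 17547634). It read 1873, 2279 and 2268 in controls and 2139, 2307 and 2659 with the Angpt2 hairpin. Control replicate 1 was the lowest array and Angpt2 shRNA-1 replicate 3 the highest, and the groups overlapped. In log2 terms Kpnb1 was 11.06 ± 0.16 in controls and 11.20 ± 0.16 with the Angpt2 hairpin (SD, n = 3), a difference of 0.15 (SE 0.12, 95% interval -0.11 to 0.41). The interval reaches from 0.924-fold to 1.33-fold. In this row Kpnb1 was higher within each of the 3 replicate numbers, by log2 0.19, 0.02 and 0.23, which the other rows described below did not share.

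Kpnb1 had further rows on the array. Transcript cluster 17268469 read between 1807 and 2297, with a log2 difference of 0.05, and cluster 17255755 read between 426 and 522, with 0.11. The high value of Angpt2 shRNA-1 replicate 3 seen in the main row, 2659, was not seen in cluster 17268469, which read 2113 there. Within replicate number 1 both of these clusters were higher with the hairpin. Cluster 17268469 was lower with it in number 2 (2230 against 2297 in the control) and number 3 (2113 against 2134). Cluster 17255755 was higher in number 2 (522 against 480) and lower in number 3 (506 against 508). A further row, annotated with both Kpnb1 and Gm8738, read 79.0 to 91.9, close to the array median, and is not assigned to Kpnb1. Without Angpt2 shRNA-1 replicate 3 the difference of the main row was 0.06, and without control replicate 1 it was 0.05.

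Kpna3 and Kpna4, adaptors of one branch, showed no common direction. Kpna3 (gene ID 16648) read 1162, 1599 and 1443 in controls and 1277, 1602 and 1460 with the Angpt2 hairpin. In both groups replicate 1 was lowest and replicate 2 highest, and the groups overlapped over nearly their whole range. The log2 difference was 0.05 (SE 0.13, 95% interval -0.25 to 0.35), and it was -0.08 without control replicate 1 and -0.03 without Angpt2 shRNA-1 replicate 2. Kpna4 (gene ID 16649) read 564, 656 and 620 in controls and 572, 645 and 544 with the hairpin. Its lowest array was Angpt2 shRNA-1 replicate 3 and its highest control replicate 2, with a log2 difference of -0.06 (SE 0.10, 95% interval -0.29 to 0.16).

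Kpna1 and Kpna6, adaptors of another branch, were lower in group means by small amounts. Kpna1 (gene ID 16646) read 608, 670 and 660 in controls and 615, 615 and 637 with the Angpt2 hairpin. It was the steadiest member, spanning 1.10-fold over the 6 arrays, and its log2 SD of 0.06 was larger than that of 6.45% of genes. The log2 difference of Kpna1 was -0.05 (SE 0.08, 95% interval -0.24 to 0.13). Kpna6 (gene ID 16650) read 497, 586 and 523 in controls and 490, 442 and 513 with the hairpin. Control replicate 2 was its highest array and Angpt2 shRNA-1 replicate 2 its lowest, so most of its difference came from number 2, where the log2 value was -0.41 against -0.02 and -0.03 in numbers 1 and 3. Between the groups the log2 difference of Kpna6 was -0.15 (SE 0.10, 95% interval -0.37 to 0.07), or 1.11-fold lower. A dim second Kpna6 row, at 69.0 to 91.7, gave -0.02, and with both rows averaged the value was -0.08.

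**Figure D2:**
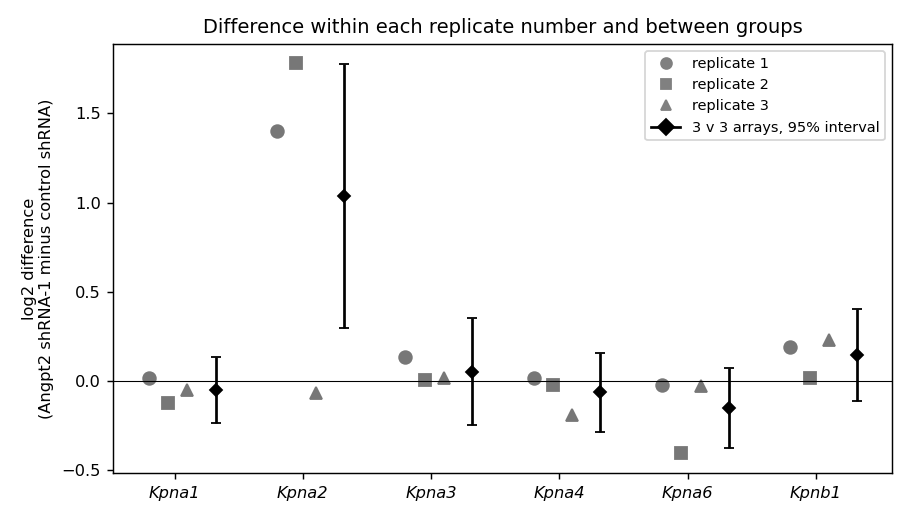
Log2 difference between Angpt2 shRNA-1 and control shRNA for each importin gene, within replicate numbers 1, 2 and 3 (grey) and between groups of 3 arrays with its 95% interval (black). Kpna2 lies at 1.40 and 1.78 in numbers 1 and 2 and at -0.07 in number 3, while the group difference of the other 5 genes lies between -0.15 and 0.15.

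Counted over the family, 3 members had positive and 3 negative log2 differences, with a median of -0.00 against -0.01 over all genes tested. Arrays of the groups did not overlap for 0 of 6 members, against 9.01% of all genes. A difference of at least 2-fold was seen for 1 of 6 members, Kpna2, against 0.0225% of genes (5 of 22180), a share that is read no further because Kpna2 was chosen for that value. The limma fit with Benjamini-Hochberg adjustment called 0 of 22180 genes (0%), so also 0 of the 6 members, from which nothing is read. It called 2 genes with the replicate number as a block, neither of them an importin. Apart from Kpna2, the members spanned between 1.10-fold and 1.42-fold over the 6 arrays. For 3 of the 6 members, Kpna1, Kpna3 and Kpnb1, the lowest array was control replicate 1. The share over all genes was not counted, and the median deviation of 49 other transport genes on that array was also negative (log2 -0.14). Nothing is therefore read from this count.

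The remaining genes of nuclear transport were compared as lists of 57 genes, of which 49 were measured and 8 were not analysed here. Of the 49, 25 had positive and 24 negative log2 differences, with a median of 0.00, and limma called 0 higher and 0 lower. At an unadjusted limma p under 0.05 there were 2, Ranbp1 and Nup93, against 3.76% of all genes (835 of 22180). Leaving out control replicate 3 gave 4 genes, leaving out Angpt2 shRNA-1 replicate 1 gave 0, and leaving out any other single array gave 1. Groups did not overlap for 4 of them (8.16%), against 9.01% of all genes.

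Among other import adaptors, Snupn, which imports spliceosomal ribonucleoproteins, had a log2 difference of -0.12 (SE 0.16), and Kpna7, an importin alpha of the oocyte and early embryo, one of 0.09 (SE 0.10). Kpna7 read 59.5 to 75.6, near the array median, and cannot be told from background. Of 10 other import receptors of the importin beta family, 3 were positive and 7 negative (median -0.02). Ipo13 stood at -0.17 (SE 0.08), below the controls on all 3 Angpt2 shRNA-1 arrays, and Ipo11 at 0.09 (SE 0.11).

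Export receptors were likewise mixed, with 3 of 7 positive and a median of -0.00. Xpot, the exportin for transfer RNA, was at -0.28 (SE 0.22) with a reading of 1297 in control replicate 1 and of 636 to 750 elsewhere. Xpo1, the main exportin for proteins, was at 0.19 (SE 0.10). Cse1l, the exportin that recycles importin alpha and is therefore the partner of all 5 adaptors here, read 2405, 3003 and 2859 in controls and 2964, 2598 and 2876 with the Angpt2 hairpin. Its log2 difference was 0.03 (SE 0.11), and it was named here for its role, after its values were seen.

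In the Ran cycle 2 of 6 measured genes were positive, with a median of -0.05. Ran itself read 364, 481 and 360 in controls and 311, 356 and 358 with the hairpin, with no overlap and a log2 difference of -0.22 (SE 0.13). Ranbp1, which helps to strip importins of RanGTP in the cytoplasm, read 914, 760 and 1286 in controls and 1426, 1109 and 1351 with the hairpin. Like Kpna2 it was lowest on control replicates 1 and 2, and its log2 difference was 0.42 (SE 0.18). Neither passed the limma test, each with adjusted p = 1.00.

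Of 24 measured nucleoporins, the proteins of the nuclear pore, 16 were positive and 8 negative, with a median of 0.02 and with none called. Sec13, shared by the pore and by secretory vesicle coats, was at 0.26 (SE 0.12), reading 1017 and 1045 on control replicates 1 and 2 and 1316 to 1370 on the other 4 arrays. Nup88 was at 0.24 (SE 0.40) and varied from 234 to 733 between cultures. In all, 7 of the 49 other transport genes (14.3%) had control replicates 1 and 2 as their 2 lowest arrays, against 6.62% of all genes, and none of the 7 had a 2-fold gap. They were Kpna7, Xpo1, Ranbp1, Nup37, Nup133, Sec13 and Aaas, of which Kpna7 cannot be told from background. This count was added after the values were seen, and its background of 6.62% includes genes at all levels.

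**Figure D3:**
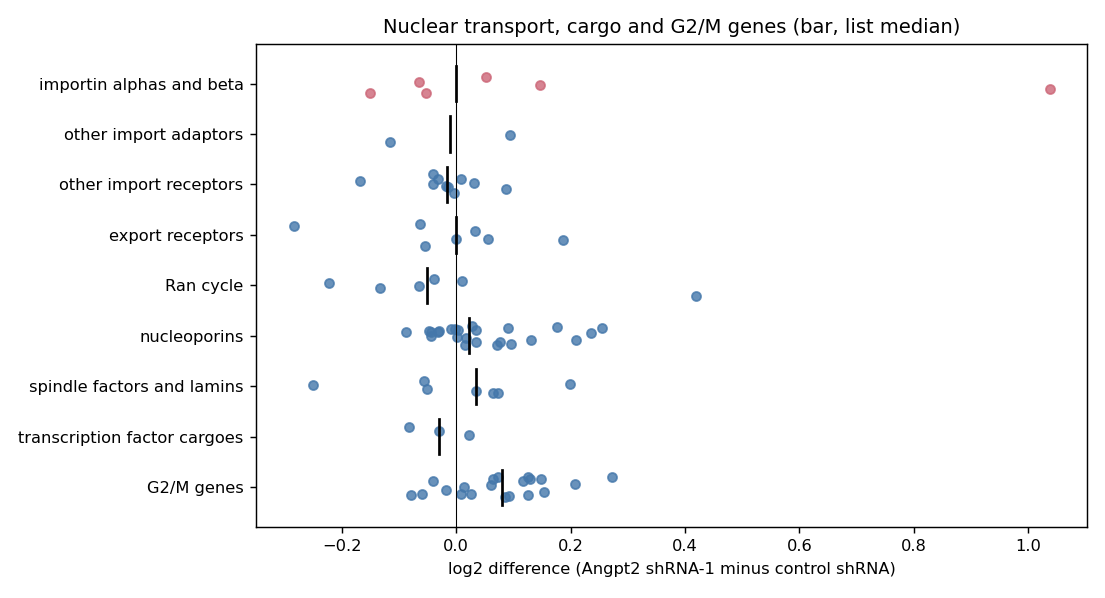
Log2 difference between Angpt2 shRNA-1 and control shRNA for each measured gene of the nuclear transport, cargo and G2/M lists, with the importin genes in red, the others in blue, a black bar at each list's median and vertical scatter only to separate points. Kpna2 lies at 1.04, and every gene of the other lists lies between -0.28 and 0.42.

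Proteins that importins bind were also measured. Importin alpha and beta hold spindle assembly factors inactive until Ran releases them around mitotic chromosomes. Of 7 such factors and B-type lamins, 4 were positive (median 0.04), with Numa1, a spindle pole organiser, at -0.25 (SE 0.12) and Kif22, a chromosome-bound kinesin, at 0.20 (SE 0.11). Of 6 transcription factors imported by importin alpha, 3 were measured, with Stat3 at -0.08 (SE 0.12) and Myc at -0.03 (SE 0.17). Limma called 0 genes of these lists and of the G2/M list at an adjusted p of 0.05, with 0 of 30 also at an unadjusted p under 0.05, against 3.76% of all genes. Leaving out control replicate 3 gave 4 unadjusted, leaving out Angpt2 shRNA-1 replicate 1 gave 2, and the replicate block gave 1.

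Since the Kpna2 transcript is known to follow the cell cycle, G2/M genes were set beside it array by array. Of 20 measured G2/M genes 16 were positive, with a median log2 difference of 0.08 against -0.01 over all genes. As a deviation from each gene's mean over the 6 arrays, the median of the G2/M list was -0.24 on control replicate 1, 0.01 on control replicate 2 and 0.07 on control replicate 3. On the Angpt2 shRNA-1 arrays it was 0.00, 0.12 and 0.00. Kpna2 deviated by -0.81 and -1.15 on control replicates 1 and 2, so its lowest array, control replicate 2, was not low for the G2/M list. Of the list, 5 genes, Cdk1, Plk1, Top2a, Hmmr and Cdc25c, had control replicates 1 and 2 as their 2 lowest arrays. This was a share of 25.0% against 6.62% of all genes, counted after the values were seen. The 2 shares are not like for like, because all genes include dim ones and the G2/M genes had means of at least 476. Control replicate 1 was also low for the 49 other transport genes, with a median deviation of -0.14. Cdc25c, a phosphatase that activates the mitotic kinase, read 494, 374 and 654 in controls and 613, 599 and 581 with the hairpin (log2 difference 0.27, SE 0.17), and the mitotic kinase gene Aurka was at 0.21 (SE 0.11). The part of cell cycle differences between cultures in the Kpna2 values was not tested.

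**Figure D4:**
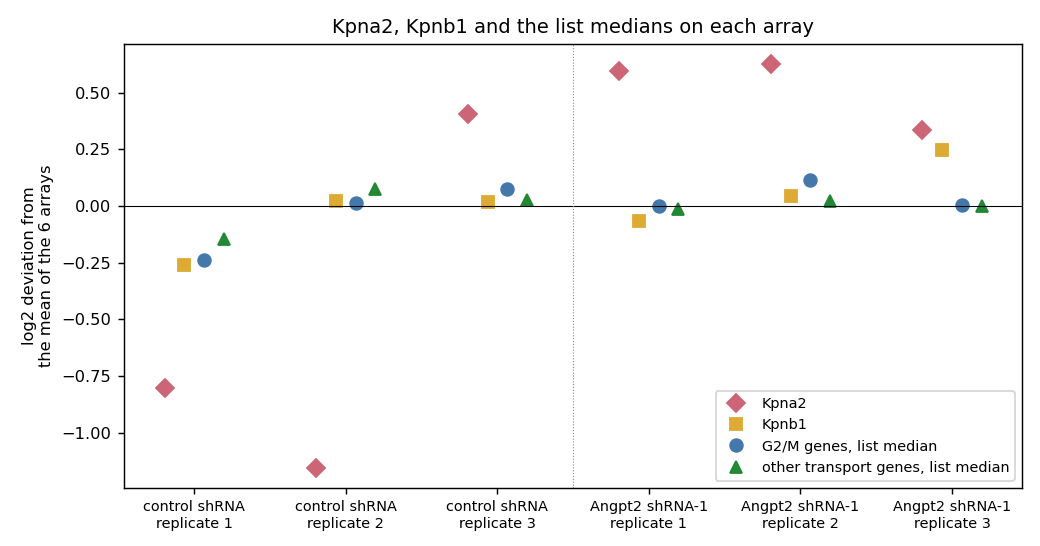
Log2 deviation from the mean of the 6 arrays for Kpna2, Kpnb1, the median of 20 G2/M genes and the median of 49 other transport genes, on each array. On control replicate 1 all 4 are below 0, whereas on control replicate 2 Kpna2 is at -1.15 and the G2/M median at 0.01.

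The genes most like each importin were ranked by Pearson r of log2 values over the 6 arrays, among 11089 other genes above the median level. For Kpna2 they were Pdxp, a phosphatase of vitamin B6 phosphate, Tm9sf1, a multispanning membrane protein, the uncharacterised Gm13034, Ethe1, a mitochondrial sulfur dioxygenase, and Dctn6, a subunit of dynactin. Their r ran from 0.991 to 0.999 and Spearman's rho from 0.829 to 1.00. These r values lean on the 2 low arrays, and Pdxp read only 83.5 to 114, not far above the array medians. On the other 4 arrays r was 0.959 for Pdxp, 0.901 for Tm9sf1, 0.999 for Gm13034, 0.631 for Ethe1 and 0.559 for Dctn6. All 5 varied less than Kpna2, by 1.30-fold to 1.61-fold over the 6 arrays against 3.43-fold. With 6 arrays high values are common, and 114 of the 11089 genes had an r above 0.9 with Kpna2.

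For Kpnb1 the closest were Ythdc2, an RNA helicase, Rab8b, a GTPase of vesicle transport, Rnf138, a ubiquitin ligase, Xrn1, an exoribonuclease of RNA decay, and Wfdc10, with r from 0.973 to 0.989 and Spearman's rho from 0.771 to 0.943. Without control replicate 1 and Angpt2 shRNA-1 replicate 3, the arrays farthest from the Kpnb1 median, r over the other 4 ran from 0.667 to 0.988. Wfdc10 read only 99.4 to 116, not far above the array medians. An r above 0.9 with Kpnb1 was reached by 113 genes. No gene appeared among the 5 closest of both Kpna2 and Kpnb1. These likenesses rest on the same arrays and carry no test.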

How the data were processed

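The 6 samples, grouped by their genotype labels, had 1 array each, and the labels call the 3 cultures of a group biological replicates. The authors deposited normalized intensity per transcript cluster. Its linear scale was read from the values (28.1 to 12624), and the background correction, probe summary and normalization are not given in the sources used here. Platform annotation gave 23521 of 41345 rows exactly 1 symbol, and the brightest row of each gene left 22180 genes. No filter on low values was applied, and no pair of arrays was identical. The values carry no detection calls, and the number of arrays limits the precision.

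Log2 values, with no pseudocount, entered a two-sided limma test (version 3.58.1, lmFit then eBayes, under R 4.3.3). P-values were adjusted by Benjamini-Hochberg across the 22180 genes, and a gene was called at 0.05. SE and 95% intervals are moderated ones from this fit. The fit was run on simulated data for its recovery of added differences, and how often its intervals hold the true difference was not checked. The members and the gene lists were chosen with earlier results of these data known. Genes named are the members, Angpt2, the 2 genes of each list with the largest absolute difference (shown for the transport, cargo and G2/M lists) and the 5 most like Kpna2 or Kpnb1, with others marked or named for a stated count.

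Both groups use replicate numbers 1, 2 and 3. Deviations from group means of same-numbered arrays correlated across genes at 0.13, 0.21 and 0.14, and those of differently numbered arrays at -0.19 to 0.06. The deviations of a group cancel over its arrays, so these correlations are not independent. The numbers were taken as a possible pairing, from the data and not from the labels. The main fit did not use this pairing, which entered only as the replicate block. Alternatives were this block, quantile normalization, centring on array medians, genes above the median level, a pseudocount of 16, trend and robust options, the mean of all rows of a gene, and leaving out each array.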

Additional observations from a re-analysis of the deposited data

How the results depend on the processing

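Under 12 alternatives (trend and robust options leave these values as they are) the log2 differences of the 6 importin genes were recomputed. They moved by less than their spread between replicates in 72 of 72 values, but much of this count was fixed in advance. With an array left out, the mean of so small a group cannot move by as much as that spread. The replicate block and the limit to genes above the median level leave the log2 differences unchanged by construction. The count could have come out otherwise only for quantile normalization, centring, the pseudocount and the mean of all rows. The sign changed in 2 of the 72 values, both for Kpna3, without control replicate 1 and without Angpt2 shRNA-1 replicate 2. With an array left out Kpna2 ranged from 0.72 to 1.50, and with all arrays kept from 1.02 to 1.04. Its replicate spread is wide, so the first range counts as small only against that spread. The number of genes called was 0, against 2 with the replicate block (Angpt2 and Pld4), 1 with trend and robust options (Pld4), and 0 to 2 with an array left out. With the replicate block the log2 difference of Kpna2 kept its value of 1.04, with an SE of 0.29 (95% interval 0.38 to 1.70). Of the other transport, cargo and G2/M genes 0 were called under each of these alternatives. The median gene shifted by at most 0.01 between scalings. For the median gene the 95% interval reached 0.23 to each side on the log2 scale. Signals near the array median, such as Kpna7 and the second Kpna6 row, cannot be told from background.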
